A study of Mus musculus with 11 samples.

Results

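The genes described here are 10 mouse genes linked to ovulation, namely the EGF-like growth factor genes Ereg, Areg and Btc, the prostaglandin synthase gene Ptgs2, the cumulus matrix genes Has2, Tnfaip6 and Ptx3, the progesterone receptor gene Pgr, the endothelin gene Edn2, and Parm1. They were chosen by symbol, and all 10 were found among the 24490 genes of the deposited count files. Their mRNA was measured by RNA-seq in primary ovarian granulosa cells of RjOrl:SWISS mice, which line the follicle around the oocyte and produce steroids. Every group received 30 pmol of siRNA by lipofection, the transfection mix was removed after 5 h, and cells were lysed for RNA at 30 h. Cells that got a nontargeting scrambled siRNA (scramble) gave 3 libraries. Cells that got siRNAs against Akt1, the gene of a kinase that PI3K signalling activates, gave 8, with 2 for each of 4 pools of 3 siRNAs. Each pool left out another of 4 Akt1 siRNAs: pool 1 had no siRNA 9, pool 2 no siRNA 7, pool 3 no siRNA 8 and pool 4 no siRNA 6. The labels give no age or hormone treatment of the mice and no gonadotropin in the medium, so these are levels in cultured cells and not in a follicle at ovulation. The pool numbers of the protocol and of the sample titles were matched by number, which is an assumption.

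In the follicle, the surge of luteinizing hormone (LH) raises cAMP in mural granulosa cells. These cells then shed the EGF-like ligands amphiregulin, epiregulin and betacellulin, which activate the EGF receptor on neighbouring granulosa and cumulus cells. The cumulus cells respond by making prostaglandins through Ptgs2 and a hyaluronan matrix that Has2 synthesizes and that Tnfaip6 and Ptx3 crosslink and stabilize, while mural cells turn on Pgr and, close to follicle rupture, Edn2. PI3K and AKT are among the pathways that act downstream of the EGF receptor and of gonadotropins in these cells.

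Akt1 ranged from 399 to 529 counts per 1000000 reads in genes (CPM) over scramble and from 52.7 to 81.7 CPM over the pools. Pools 1 to 4 kept 13.6%, 11.9%, 17.8% and 13.0% of the scramble mean, so Akt1 was lowest in pool 2 and highest in pool 3. The part of this order in the results below was not tested. Libraries held 23851293 to 32643158 reads in genes, so 1 read was worth 0.0306 to 0.0419 CPM. Scramble replicate 1 stood apart: its median correlation with the other libraries across genes was 0.948, against at least 0.990 for each of the other 10 libraries. Short transcripts were counted higher in it than in scramble replicates 2 and 3 and long ones lower, with medians from 0.72 log2 in the shortest of 5 exon length classes to -0.82 in the longest. Tests of the 10 genes are therefore given with all 11 libraries and without scramble replicate 1. Of 13 granulosa markers, Inha, Gja1 and Foxl2 were well counted (at 1241 to 3486, 602 to 1239 and 112 to 203 CPM), while the FSH receptor gene Fshr and Amh were under 1 CPM in all libraries. Inha and Gja1, the most abundant, therefore weigh most in the sum of the 13. The summed granulosa markers were at 4493 to 5129 CPM in scramble, 3469 to 3593 in pool 1, 3994 to 4368 in pool 2, 2639 to 2794 in pool 3 and 3301 to 3557 in pool 4. That order of pools is also the order of several genes below, and its part in their differences was not tested. Markers of other ovarian cells were counted too. Of 8 theca markers, Cyp17a1, Insl3 and Hhip were under 1 CPM in all libraries, but Aldh1a1 was at 2789 to 4450 CPM, Acta2 at 834 to 3032 and Ptch1 at 16.1 to 39.3. The summed theca markers were at 5194 to 7501 CPM in scramble, 4457 to 4595 in pool 1, 5404 to 5820 in pool 2, 3655 to 3793 in pool 3 and 4477 to 4518 in pool 4, lowest in pool 3 like the granulosa sum. Of 8 immune markers, Ptprc, Adgre1, Itgam and Tyrobp were under 1 CPM in all libraries, Cd68 was at 3.08 to 5.79 CPM and Csf1r at 0.964 to 3.85, and the sum was at 6.63 to 10.2 CPM in scramble and 6.63 to 12.0 in the pools. Sums of 8 surface epithelium markers were at 376 to 683 CPM in scramble and 368 to 432 in the pools, and those of 7 stroma markers at 2613 to 3465 and 2941 to 3386. Sums of 8 luteal markers were at 4748 to 6191 CPM in scramble and 3858 to 4595 in the pools, those of 7 endothelial markers at 13.2 to 14.4 and 13.4 to 19.4, and those of 10 oocyte markers at 5.41 to 8.09 and 2.89 to 5.70. Scramble replicate 1 gave the highest scramble sum of the granulosa, theca, immune, surface epithelium, luteal and oocyte markers and the lowest of the stroma markers. The part of these marker levels in the results below was not tested. The LH receptor gene Lhcgr was at 0.588 to 1.36 CPM. In bulk RNA, fewer cells of a type and less RNA per cell cannot be told apart.

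Scramble replicate 1 was low for most of the 10 genes. Against the mean of scramble replicates 2 and 3 it was lower by 1.52 log2 CPM for Pgr, 1.49 for Parm1, 1.09 for Ptgs2, 0.88 for Ereg, 0.76 for Has2, 0.57 for Btc and 0.28 for Tnfaip6. It was higher by 0.79 for Areg, 0.72 for Edn2 and 0.42 for Ptx3, which are 3 of the 4 shortest of these transcripts. The low genes lay below the median of their length class, which was -0.07 log2 for the class that holds Ptgs2, Ereg, Btc, Has2 and Parm1 and -0.82 for that of Pgr. A mean over 3 scramble libraries therefore sits lower than replicates 2 and 3 for 7 of the genes and higher for the other 3.

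**Figure D1:**
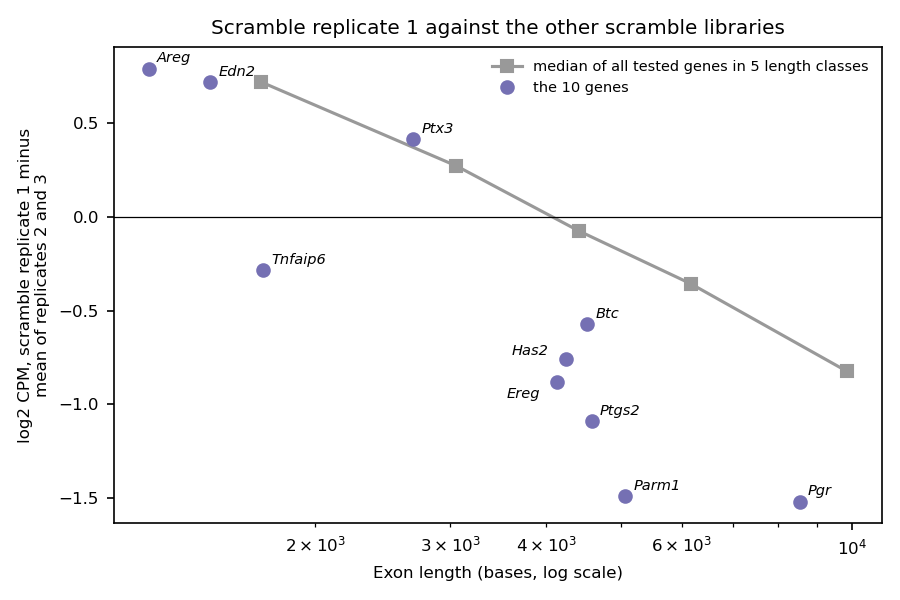
Difference in log2 CPM between scramble replicate 1 and the mean of scramble replicates 2 and 3 (y axis) against exon length in bases (x axis, log scale), for the 10 genes (circles) and as the median of all tested genes in 5 length classes (squares). The class medians go from 0.72 to -0.82, and Pgr and Parm1 are the lowest of the 10 genes, at -1.52 and -1.49.

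Per length, Ptgs2 was the highest of the 10 genes and Areg the lowest. In scramble replicates 2 and 3, Ptgs2 was at 85.2 ± 0.580 CPM per kilobase of exon (RPKM; SD, n = 2) and Parm1 at 69.5 ± 3.78 RPKM. Ereg followed at 16.9 ± 1.76, Tnfaip6 at 9.43 ± 0.371 and Btc at 5.56 ± 0.237 RPKM. Pgr, at 3.61 ± 0.460 RPKM, and Ptx3, at 3.13 ± 0.00379, were closer to each other than 2 SD of Pgr, so their order is not clear from these libraries. Has2 was at 2.07 ± 0.169 RPKM, Edn2 at 0.950 ± 0.0460 and Areg at 0.279 ± 0.0939. Lengths are those of the joined exons of GENCODE vM21 on mm10, and all 10 genes passed the low-count filter.

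**Figure D2:**
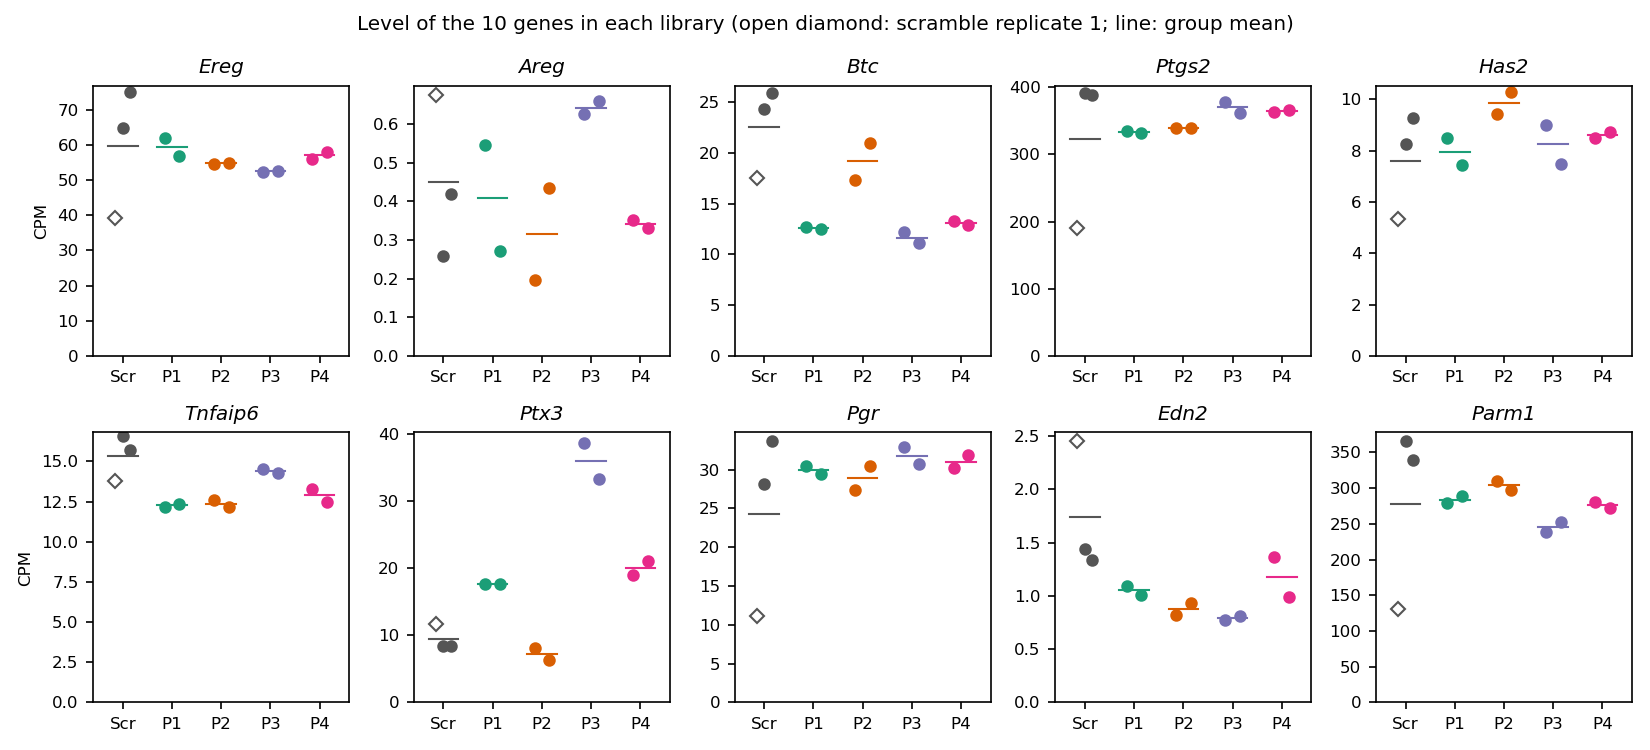
CPM of each gene in each library (y axes start at 0) for scramble (Scr) and pools 1 to 4 (P1 to P4), with a point per library, a line at the group mean and scramble replicate 1 as an open diamond. Ptx3 reaches 33.3 and 38.6 CPM in pool 3 and is at 6.39 and 8.14 in pool 2, while Btc is at 17.4 and 21.0 CPM in pool 2 and at 11.1 to 13.3 in the other 3 pools.

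The comparison of all 8 pool libraries with the 3 scramble libraries took the pools as a single group, so differences between pools counted as spread. A difference from scramble in it need not be present in every pool, and the pools have siRNAs in common. With all 11 libraries, 0 of the 10 genes passed an adjusted p of 0.05 in edgeR's quasi-likelihood test, against 0.00707% of the 14144 genes tested. In the same test 4 of the 10 (Tnfaip6, Ptx3, Edn2 and Btc) had an unadjusted p below 0.05, beside 4041 of the 14144 genes. With the mean of the 4 pools taken from a fit with 5 groups instead, edgeR called 3 of the 10 (Edn2, Btc and Ptx3), beside 901 of the 14144 genes. DESeq2 called 2 of the 9 genes to which it gave an adjusted p, Edn2 and Btc, both lower (8.52% of genes called). Against scramble in edgeR, pool 1 had 1 of the 10 past the threshold (Ptx3, 1.93% of genes) and pool 2 had 0 (0.00707%). Pool 3 had 3 (Ptx3, Edn2 and Btc, 11.2%) and pool 4 had 1 (Ptx3, 2.57%). In pool 2, Tnfaip6 and Edn2 were below 0.05 unadjusted, beside 653 of the 14144 genes, and DESeq2 called 0 of the 10. Without scramble replicate 1, edgeR called 0 of the 10 in all pools together (0.469% of genes), and 6 were below 0.05 unadjusted, beside 2990 of 14062 genes. For the single pools it called 6 of the 10 for pool 1 (28.8%), 5 for pool 2 (4.39%), 7 for pool 3 (48.8%) and 6 for pool 4 (31%). Lower were 5 of the 10 for pool 1 (17% of genes), 5 for pool 2 (2.69%), 6 for pool 3 (26.1%) and 5 for pool 4 (17.8%), and Ptx3 was higher for pool 1 (11.8%), pool 3 (22.7%) and pool 4 (13.2%). The 4 pool comparisons share their scramble libraries and the pools share siRNAs, so agreement between pools is not independent. Pools 1, 3 and 4 all held siRNA 7, which pool 2 lacked, and its part in these results was not tested.

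**Figure D3:**
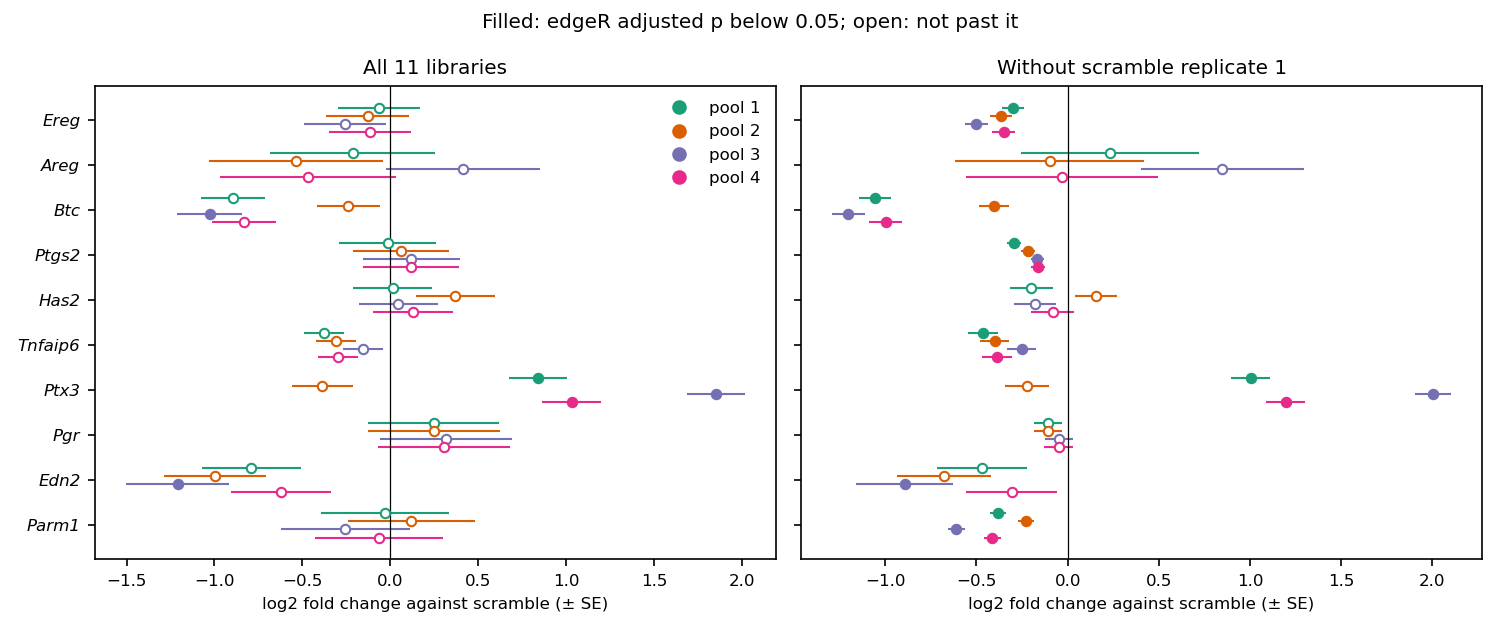
Log2 fold change of each gene against scramble in pools 1 to 4 with its SE, from all 11 libraries (left) and without scramble replicate 1 (right). Filled points passed an edgeR adjusted p of 0.05, which were 5 points on the left and 24 on the right.

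Of the 3 EGF-like ligand genes, Btc (betacellulin, which binds EGFR and ERBB4) was the one that passed the test with all libraries, in pool 3. Btc was counted at 17.6, 24.4 and 25.9 CPM in scramble replicates 1 to 3, at 12.7 and 12.6 in pool 1, 17.4 and 21.0 in pool 2, 12.2 and 11.1 in pool 3, and 13.3 and 12.9 in pool 4. The libraries of pools 1, 3 and 4 were all below the 3 scramble libraries, while those of pool 2 overlapped scramble replicate 1. Pool 3 was lower than scramble by 1.03 ± 0.18 log2 (SE; edgeR adjusted p = 0.0108, in 2 of 2 libraries), a level of 51.5% of the scramble mean. This call was lost without pool 3 replicate 1 (edgeR adjusted p = 0.0948) or pool 3 replicate 2 (0.114). Pools 1 and 4 had log2 fold changes of -0.89 ± 0.18 and -0.83 ± 0.18 (edgeR adjusted p = 0.051 and 0.0581), and pool 2 of -0.24 ± 0.18 (0.611). DESeq2 with all libraries called Btc lower in pools 1, 3 and 4. Without scramble replicate 1 all 4 pools were called lower, by 1.06 ± 0.09, 0.40 ± 0.08, 1.20 ± 0.09 and 1.0 ± 0.09 in pools 1 to 4 (edgeR adjusted p at most 0.00526). Pool 2 was also higher than the average of the other 3 pools, by 0.68 ± 0.15 with all libraries (edgeR adjusted p = 0.0422) and by 0.68 ± 0.07 without scramble replicate 1 (1.13e-07). With all libraries this difference was lost on leaving out 9 of the 11 libraries in turn, at 0.0597 to 0.453, and kept without scramble replicate 1 or 3.

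Ereg (epiregulin) was lower than scramble replicates 2 and 3 in every pool library. It was at 39.3, 64.7 and 75.0 CPM in scramble, 62.1 and 56.7 in pool 1, 54.6 and 54.9 in pool 2, 52.4 and 52.5 in pool 3, and 56.1 and 57.9 in pool 4. Scramble replicate 1 lay below all 8 pool libraries and the other scramble libraries above all of them. With all 11 libraries no pool passed the test (log2 fold changes of -0.06 to -0.26, edgeR adjusted p of 0.503 to 0.89). Ereg was called lower in each pool without scramble replicate 1, by 0.30 ± 0.06, 0.37 ± 0.06, 0.50 ± 0.06 and 0.35 ± 0.06 in pools 1 to 4 (edgeR adjusted p at most 0.000698). The counting's strand setting is not given in the sources used here, and the antisense gene Gm19610, absent from the count rows, overlaps Ereg's exons, so its reads cannot be told apart from those of Ereg.

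Areg (amphiregulin), one of the ligands that LH induces in the follicle, was barely counted in these cells. Its libraries held 22, 7 and 10 reads in scramble, 17 and 8 in pool 1, 6 and 13 in pool 2, 17 and 21 in pool 3, and 9 and 9 in pool 4. That is 0.197 to 0.674 CPM, and the groups overlapped. No pool passed the test with all libraries (log2 fold changes of -0.54 to 0.41, each with an SE of at least 0.44) or without scramble replicate 1 (-0.10 to 0.85), and a difference between pools was not detectable at this depth. Levels of Ereg per length were far above those of Areg, at 16.9 against 0.279 RPKM in scramble replicates 2 and 3.

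Ereg, Areg, Btc and Parm1 lie side by side on mouse chromosome 5, in 552 kb at 91074622 to 91626894 (mm10). Of the count files' genes, 5 start in that span and 4 passed the low-count filter, which are these 4 genes, while Gm19619 between Areg and Btc was at 0 to 0.126 CPM. The ligand gene Epgn just before Ereg was at 0.0839 to 0.306 CPM and was not tested, and Mthfd2l, the next gene out, was at 8.82 to 10.8 CPM in scramble and 9.63 to 12.2 in the pools. The 4 neighbours differed in size of change: in pool 3 they stood at 75.1% (Ereg), 189% (Areg, from 17 and 21 reads), 46.3% (Btc) and 69.7% (Parm1) of scramble replicates 2 and 3. The sequences before the starts of Btc and Areg are shown because these neighbours have promoters of unlike make-up and Btc was the ligand gene that passed the test with all libraries. Each has the 250 bases before the RefSeq start in GRCm38.p6, written 5′ to 3′ on the gene's strand, with matches to any of 8 motifs in capitals.
Btc promoter (chr5:91402995-91403244, minus strand): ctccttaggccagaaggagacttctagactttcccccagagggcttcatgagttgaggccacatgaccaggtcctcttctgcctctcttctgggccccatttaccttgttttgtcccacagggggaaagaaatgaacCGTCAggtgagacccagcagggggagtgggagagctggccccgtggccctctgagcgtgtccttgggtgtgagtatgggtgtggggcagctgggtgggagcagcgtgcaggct
Areg promoter (chr5:91139349-91139598, plus strand): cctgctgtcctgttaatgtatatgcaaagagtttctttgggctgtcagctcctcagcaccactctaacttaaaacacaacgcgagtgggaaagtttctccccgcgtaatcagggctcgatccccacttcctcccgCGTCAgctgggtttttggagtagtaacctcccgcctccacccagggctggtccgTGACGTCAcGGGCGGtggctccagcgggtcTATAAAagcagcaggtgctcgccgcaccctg
The Areg window held the full cAMP response element TGACGTCA at -61 to -54 from the start, which 1.55% of 32851 mouse promoter windows of this length hold on either strand. It held the element's core TGACG in reverse at -115 to -111 as well (17.8% of windows hold the core, which the full element contains in each direction), a GC box (GGGCGG, 32.7%) at -52 to -47 and TATAAA (12.4%) at -31 to -26. The Btc window held a single match, the core TGACG in reverse at -113 to -109. The other motifs searched were AP-1 (TGANTCA, 6.75%), the forkhead site TGTTTAC (3.17%), the E-box CACGTG (6.02%) and the C/EBP site TTNNGNAA (36.8%), on both strands. A match is a description of the letters and not of binding.

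Of 19 other genes of the EGF receptor system, 16 were tested and 0 passed in any of the 4 pools against scramble or in the 3-degree test among pools (1.93%, 0.00707%, 11.2% and 2.57% of all genes against scramble in pools 1 to 4). The list's median log2 change over all pools was 0.09, beside -0.02 for all genes tested. Dusp6, a phosphatase that ERK signalling induces, was at 0.05 ± 0.11 and Adam10, a sheddase, at 0.29 ± 0.15 (edgeR adjusted p = 0.750 and 0.212). Leaving out scramble replicate 1 gave 7 calls of 16 for pool 1 (2 higher), 4 for pool 2 (2 higher), 12 for pool 3 (4 higher) and 8 for pool 4 (4 higher), beside 28.8%, 4.39%, 48.8% and 31% of all genes. Lrig1, which encodes a membrane protein that dampens EGF receptor signalling, was then the single gene of this list called over all pools. It was lower by 0.27 ± 0.05 (edgeR adjusted p = 0.0409), and 0.469% of all genes were called in that comparison. The receptor gene Egfr, chosen for mention after its values were seen, was at 138 and 161 CPM in scramble replicates 2 and 3, 60.2 CPM in scramble replicate 1, and at means of 122, 159, 92.5 and 121 CPM in pools 1 to 4. Without scramble replicate 1 Egfr was lower in pools 1, 3 and 4 by 0.36 ± 0.05, 0.78 ± 0.06 and 0.37 ± 0.06 (edgeR adjusted p at most 3.06e-05), and pool 2 was at 0.08 ± 0.05 (0.519).

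Ptgs2 (cyclooxygenase 2, which makes the precursor of ovulatory prostaglandins) was the most abundant of the 10 genes, and its pool levels lay within the spread of the scramble libraries. It was at 191, 392 and 388 CPM in scramble, 334 and 333 in pool 1, 340 and 339 in pool 2, 379 and 361 in pool 3, and 363 and 366 in pool 4. All 8 pool libraries lay above scramble replicate 1 and below replicates 2 and 3. With all libraries the log2 fold changes were -0.02 to 0.12 with an SE of 0.27, and 0 of the 4 pools passed (edgeR adjusted p of 0.794 to 0.979). With that library left out, Ptgs2 was lower by 0.29 ± 0.04, 0.22 ± 0.04, 0.17 ± 0.04 and 0.16 ± 0.04 in pools 1 to 4 (edgeR adjusted p at most 0.00274). The sign of the change in pools 2, 3 and 4 thus turned on scramble replicate 1.

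Ptges, the prostaglandin E synthase that acts after Ptgs2, fell in 3 of the 4 pools. It was at 135, 119 and 115 CPM in scramble and at means of 89.7, 117, 71.7 and 85.4 CPM in pools 1 to 4. The falls were 0.51 ± 0.10 log2 in pool 1, 0.85 ± 0.10 in pool 3 and 0.57 ± 0.10 in pool 4 (edgeR adjusted p = 0.0437, 0.00195 and 0.0266). Leaving out scramble replicate 1, they were 0.45 ± 0.05, 0.79 ± 0.05 and 0.51 ± 0.05 (at most 9.73e-07). Pool 2 stood above the other pools by 0.57 ± 0.08 (edgeR adjusted p = 0.00768), and by 0.57 ± 0.04 without that library (3.36e-10). Of 18 genes of prostaglandin synthesis, transport and reception, 16 were tested and 0 passed over all pools and 1, 0, 3 and 1 in pools 1 to 4, all lower, beside 1.93%, 0.00707%, 11.2% and 2.57% of all genes. The other calls in pool 3 were the prostaglandin E receptor gene Ptger2 (lower by 0.65 ± 0.12, edgeR adjusted p = 0.0121) and Ptgs1 (lower by 0.58 ± 0.10, 0.0107), both named after their values were seen and both lower without scramble replicate 1 as well, by 0.54 ± 0.05 and 0.60 ± 0.09 (at most 8.01e-06). Pla2g4a, the phospholipase that frees arachidonic acid, was at -0.02 ± 0.10 over all pools (edgeR adjusted p = 0.905). The list's median over all pools was -0.16, beside -0.02 for all genes. Leaving out scramble replicate 1 gave 9 calls of 16 for pool 1, 0 for pool 2, 8 for pool 3 and 8 for pool 4. Of these calls, 5 were higher in pool 1, 4 in pool 3 and 4 in pool 4. They stood beside 28.8%, 4.39%, 48.8% and 31% of all genes, so the share in pool 3 was close to that of all genes.

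The matrix genes went separate ways, and Ptx3 had the largest change of the 10 genes. Ptx3 encodes pentraxin 3, which stabilizes the hyaluronan matrix of the cumulus. It was at 11.7, 8.40 and 8.39 CPM in scramble, 17.6 and 17.7 in pool 1, 8.14 and 6.39 in pool 2, 38.6 and 33.3 in pool 3, and 19.1 and 21.1 in pool 4. Pools 1, 3 and 4 lay above every scramble library, pool 3 the highest, and both pool 2 libraries lay below every scramble library. Ptx3 rose by 0.84 ± 0.17 log2 in pool 1, 1.85 ± 0.17 in pool 3 and 1.03 ± 0.17 in pool 4 (edgeR adjusted p = 0.0472, 0.000651 and 0.021, higher in 2 of 2 libraries each), and pool 2 was at -0.39 ± 0.17 (0.611). Mean levels were 186%, 76.5%, 378% and 211% of scramble in pools 1 to 4. The rise in pool 3 was called on leaving out any of the 11 libraries (edgeR adjusted p at most 0.016). That in pool 1 was lost without any library other than scramble replicate 1 (0.087 to 0.396), and that in pool 4 was lost without scramble replicate 2 or either library of pools 1, 3 or 4 (0.0516 to 0.198). The rises were, on leaving out scramble replicate 1, 1.0 ± 0.11, 2.0 ± 0.10 and 1.20 ± 0.11 (edgeR adjusted p at most 2.8e-07), and pool 2 was at -0.22 ± 0.12 (0.382).

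Among the pools themselves, Ptx3 was the single one of the 10 genes that passed the 3-degree test of any difference (edgeR adjusted p = 0.00448; 2.46% of genes passed). That call was lost without pool 2 replicate 1 (edgeR adjusted p = 0.0598) or pool 2 replicate 2 (0.0674). In DESeq2's test among pools, Ptx3 and Btc passed, with 1031 of 14405 genes. Against the mean of the other 3 pools, 2 of the 10 genes passed in pool 2 (5.25% of genes): Ptx3, lower by 1.63 ± 0.17 (edgeR adjusted p = 0.00144), and Btc. In pool 3, Ptx3 alone of the 10 passed (1.83% of genes), higher by 1.36 ± 0.14 (edgeR adjusted p = 0.00979). This was lost on leaving out any library of the 4 pools (0.054 to 0.284) and kept without any scramble library. Pools 1 and 4 had 0 of the 10 genes past the threshold against the other pools (0.0141% and 0% of genes). They had 0 with an unadjusted p below 0.05 (201 and 192 of 14144 genes) and 0 in DESeq2. Libraries of pools 1, 3 and 4 all above both pool 2 libraries, as for Ptx3, were found for 31.6% of all genes tested, and all below, as for Btc, for 18.7%. Without scramble replicate 1, 5 of the 10 genes passed the 3-degree test (42.8% of genes): Ptx3 (edgeR adjusted p = 1.33e-12), Btc (1.02e-06), Parm1 (6.88e-06), Ptgs2 (0.0215) and Has2 (0.0391). Pool 2 then had 4 of the 10 past the threshold against the other pools (43.7% of genes), Ptx3 lower and Btc, Parm1 and Has2 higher, and pool 3 had 4 (39.6%), Ptx3 higher and Ereg, Btc and Parm1 lower.

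The Ptx3 promoter is shown because Ptx3 set the pools apart most among these genes.
Ptx3 promoter (chr3:66219637-66219886, plus strand): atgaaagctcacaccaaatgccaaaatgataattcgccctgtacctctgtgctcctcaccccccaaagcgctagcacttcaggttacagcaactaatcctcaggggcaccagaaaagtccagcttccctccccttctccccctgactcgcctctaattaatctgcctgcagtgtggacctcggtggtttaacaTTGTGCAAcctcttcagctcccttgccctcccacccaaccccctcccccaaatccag
Its 250 bases before the RefSeq start in GRCm38.p6 held 1 match to the 8 motifs, in capitals, a C/EBP site at -57 to -50. Ptx3 lies inside the gene Veph1, which is on the opposite strand, with no shared exon. Veph1 had 48 to 127 reads a library, at 1.47, 2.39 and 2.98 CPM in scramble replicates 1 to 3. The pool libraries were at 2.68 to 4.63 CPM, those of pool 3 at 4.63 and 3.76. Whether reads from Veph1 add to the count of Ptx3 was not tested.

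Has2, the synthase of the hyaluronan backbone, was at 5.33, 8.25 and 9.27 CPM in scramble, 8.51 and 7.43 in pool 1, 9.42 and 10.3 in pool 2, 9.01 and 7.49 in pool 3, and 8.49 and 8.73 in pool 4. The pool libraries overlapped scramble replicates 2 and 3, and 0 of the 4 pools passed with all libraries (log2 fold changes of 0.01 to 0.37, edgeR adjusted p of 0.611 to 0.978) or without scramble replicate 1 (-0.20 to 0.16, 0.213 to 0.639). Relative to the other pools' mean, pool 2 was higher by 0.31 ± 0.09 without scramble replicate 1 (edgeR adjusted p = 0.00813) and by 0.31 ± 0.20 with it (0.542). Has2os, an antisense transcript that shares exons with Has2, had 0 to 3 reads a library.

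Tnfaip6 (TSG-6, which transfers heavy chains of inter-alpha-trypsin inhibitor to hyaluronan) was at 13.8, 16.6 and 15.7 CPM in scramble, 12.2 and 12.4 in pool 1, 12.6 and 12.2 in pool 2, 14.6 and 14.3 in pool 3, and 13.3 and 12.5 in pool 4. All pool libraries were below scramble replicates 2 and 3, and the pool 3 libraries were above scramble replicate 1. With all libraries no pool passed (log2 fold changes of -0.16 to -0.38, edgeR adjusted p of 0.164 to 0.611). On leaving out scramble replicate 1 it was lower by 0.46 ± 0.08, 0.40 ± 0.08, 0.25 ± 0.08 and 0.39 ± 0.08 in pools 1 to 4 (edgeR adjusted p at most 0.0121).

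Of 20 other genes of hyaluronan and the cumulus matrix, 19 were in the count files and 13 were tested. With all libraries 0 passed over all pools, in pool 1, in pool 2 or in pool 4, and 3 passed in pool 3 (11.2% of all genes). Those were Cemip, which encodes a protein that degrades hyaluronan (lower by 1.45 ± 0.32, edgeR adjusted p = 0.0243), and the hyaluronan receptor genes Hmmr (higher by 0.89 ± 0.22, 0.0372) and Cd44 (higher by 0.79 ± 0.15, 0.0133), of which the receptor genes were named after their values were seen. With scramble replicate 1 left out, Hmmr and Cd44 were higher in pool 3 by 0.66 ± 0.06 and 0.63 ± 0.05 (edgeR adjusted p at most 9.45e-09). Cemip was abundant, at 829, 1919 and 1757 CPM in scramble and at means of 980, 1797, 577 and 960 CPM in pools 1 to 4. Its scramble replicate 1 value lay below the means of pools 1, 2 and 4. Without that library Cemip was lower by 0.97 ± 0.04 in pool 1, 1.76 ± 0.05 in pool 3 and 1.0 ± 0.04 in pool 4 (edgeR adjusted p at most 9.04e-13) and not called in pool 2. Sdc4, a heparan sulfate proteoglycan gene and the most abundant of the list with Cemip, was at -0.03 ± 0.08 over all pools (edgeR adjusted p = 0.801). The list's median was 0.14 over all pools and 0.30 in pool 3, beside -0.02 for all genes in both. Leaving out scramble replicate 1 gave 7 calls of 13 for pool 1, 2 for pool 2, 6 for pool 3 and 6 for pool 4, beside 28.8%, 4.39%, 48.8% and 31% of all genes, with pool 3 again close to all genes.

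Pgr, the transcription factor gene that ovulation requires in mural granulosa cells, did not pass in any pool. It was at 11.1, 28.1 and 33.7 CPM in scramble, 30.5 and 29.5 in pool 1, 27.4 and 30.5 in pool 2, 32.9 and 30.7 in pool 3, and 30.2 and 31.9 in pool 4. The pool libraries lay between or near scramble replicates 2 and 3, and scramble replicate 1 was below every other library. Log2 fold changes were 0.25 to 0.32 with an SE of 0.37 or 0.38 with all libraries and -0.11 to -0.05 with an SE of 0.08 without scramble replicate 1 (edgeR adjusted p of at least 0.601 and 0.333). Its sign turned on that library.

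Among 19 cofactors and ovulatory targets linked to the progesterone receptor, all were tested. With all libraries 0 passed over all pools, 1 in pool 1 (lower), 0 in pool 2, 4 in pool 3 (2 higher, 2 lower) and 2 in pool 4 (1 each way), beside 1.93%, 0.00707%, 11.2% and 2.57% of all genes. Ctsl, the protease gene cathepsin L, was the most abundant, at 1445, 971 and 1017 CPM in scramble and at means of 774, 800, 694 and 756 CPM in pools 1 to 4. It fell in pool 3 by 0.79 ± 0.17 log2 (edgeR adjusted p = 0.0214). Without scramble replicate 1 it was the single gene of the list called over all pools (0.469% of all genes), lower by 0.45 ± 0.08 (0.0466). Hif1a was at 0.01 ± 0.21 over all pools (edgeR adjusted p = 0.982). The other calls were named after their values were seen. Pparg, a nuclear receptor gene, was lower in pools 1, 3 and 4 by 0.71 ± 0.13, 1.15 ± 0.13 and 0.70 ± 0.13 (edgeR adjusted p = 0.0356, 0.00173 and 0.0335). Prkg2, the cGMP-dependent kinase gene, was higher in pool 3 by 0.84 ± 0.10 and in pool 4 by 0.52 ± 0.10 (0.00195 and 0.0367), and Cited2 was higher in pool 3 by 0.42 ± 0.10 (0.0286). These calls of Pparg, Prkg2 and Cited2 passed without scramble replicate 1 too, at -0.59, -1.04 and -0.58 for Pparg, 0.77 and 0.46 for Prkg2 and 0.45 for Cited2 (edgeR adjusted p at most 4.03e-05). The list's median over all pools was -0.07, beside -0.02 for all genes, and without scramble replicate 1 the calls were 12, 5, 13 and 12 in pools 1 to 4 (28.8%, 4.39%, 48.8% and 31% of all genes).

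Edn2 (endothelin 2, a peptide made briefly before follicle rupture that constricts the follicle wall) was rare, and its fall passed the test in pool 3 alone. It had 80, 39 and 32 reads in scramble, 34 and 30 in pool 1, 25 and 28 in pool 2, 21 and 26 in pool 3, and 35 and 27 in pool 4. In CPM that was 2.45, 1.44 and 1.34 in scramble, 1.09 and 1.01 in pool 1, 0.820 and 0.937 in pool 2, 0.772 and 0.815 in pool 3, and 1.37 and 0.990 in pool 4. Pools 1, 2 and 3 were below every scramble library, and pool 4 replicate 1 overlapped scramble. Edn2 fell in pool 3 by 1.21 ± 0.29 log2 (edgeR adjusted p = 0.0352), and pools 1, 2 and 4 were at -0.79 ± 0.28, -1.0 ± 0.29 and -0.62 ± 0.28 (0.234, 0.611 and 0.33). The pool 3 call was lost without any library of the 4 pools (0.055 to 0.227). When scramble replicate 1, its highest library, was left out, the fall in pool 3 was 0.89 ± 0.26 (edgeR adjusted p = 0.00817), and the other pools were at -0.31 to -0.68 and did not pass. Over all pools Edn2 was at -0.89 ± 0.21 (edgeR adjusted p = 0.108). Without scramble replicate 3 that fall was 1.03 and passed (edgeR adjusted p = 0.0364), as did 2336 of 14143 genes in that fit. Of 7 other genes of the endothelin system 4 were tested, and 0 passed in any of the 4 pools or over all pools with all libraries. Without scramble replicate 1, 2 were called in pool 1 and in pool 4 (Ednra and Ece1, lower), 1 in pool 3 (Ece1, lower) and 0 in pool 2, beside 28.8%, 4.39%, 48.8% and 31% of all genes. Ece1, which cleaves endothelin precursors, was at 0.04 ± 0.13 and Edn1 at 0.08 ± 0.09 over all pools (edgeR adjusted p = 0.867 and 0.536).

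Parm1, an androgen-regulated mucin-like gene of the cell membrane, was the second most abundant of the 10 per length. It was at 130, 366 and 339 CPM in scramble, 279 and 288 in pool 1, 310 and 298 in pool 2, 239 and 253 in pool 3, and 281 and 272 in pool 4. Every pool library lay above scramble replicate 1 and below replicates 2 and 3. With all libraries 0 of the 4 pools passed (log2 fold changes of -0.25 to 0.12 with an SE of at least 0.36). In the fit without scramble replicate 1 it was lower by 0.38 ± 0.04, 0.23 ± 0.04, 0.61 ± 0.04 and 0.41 ± 0.04 in pools 1 to 4 (edgeR adjusted p at most 0.00315). Pool 3 was then below the mean of the other pools by 0.27 ± 0.04 and pool 2 above it by 0.24 ± 0.04 (edgeR adjusted p = 6.76e-06 and 1.61e-05).

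Without a model, all 8 pool libraries were below scramble replicates 2 and 3 for Ptgs2, Tnfaip6, Ereg, Btc and Parm1, as they were for 5.29% of all genes tested. Means over the pools were 90.2%, 80.5%, 80.1%, 56.3% and 78.8% of scramble replicates 2 and 3 for these 5 genes. Against all 3 scramble libraries, 0 of the 10 genes stood apart, as against 2.67% of all genes below and 6.89% above. Has2 and Pgr means over the pools were 99.0% and 98.6% of scramble replicates 2 and 3.

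Transcription factors and receptors of the LH and cAMP response were counted with them. Of 20 such genes, 19 were tested, and with all libraries 0 passed over all pools, 2 in pool 1 (both lower), 0 in pool 2, 5 in pool 3 (2 higher) and 4 in pool 4 (1 higher), beside 1.93%, 0.00707%, 11.2% and 2.57% of all genes. Sfrp4, a secreted Wnt antagonist gene, was the most abundant, at 1917, 1513 and 1497 CPM in scramble and at means of 1032, 1136, 783 and 966 CPM in pools 1 to 4. It fell by 0.72 ± 0.13 in pool 1, 1.13 ± 0.14 in pool 3 and 0.81 ± 0.13 in pool 4 (edgeR adjusted p = 0.0385, 0.00208 and 0.0227), and without scramble replicate 1 in all 4 pools, by 0.61, 0.42, 1.03 and 0.70 (at most 0.000102). Fosl2 was at 0.20 ± 0.18 over all pools (edgeR adjusted p = 0.443). The other calls, named after their values were seen, were the cAMP response factor gene Crem (lower in pools 1, 3 and 4, by 0.57 to 0.66), the G protein regulator gene Rgs2 (lower in pools 3 and 4, by 1.0 and 0.95), the early response gene Egr1 (higher in pools 3 and 4, by 0.87 and 0.89) and Jun (higher in pool 3, by 0.36). Each of these calls passed again without scramble replicate 1, at -0.48 to -0.58 for Crem, -0.84 and -0.78 for Rgs2, 0.80 and 0.82 for Egr1 and 0.38 for Jun (edgeR adjusted p at most 8.87e-06). Egr1 differed from Ptx3 and Btc in its order of pools: it was at 34.2 to 38.6 CPM in scramble and at means of 33.4, 81.5, 71.1 and 70.8 CPM in pools 1 to 4, so that pool 1 lay below the other pools, by 1.17 ± 0.12 (edgeR adjusted p = 0.0447), and by 1.16 ± 0.07 without scramble replicate 1 (1.84e-09). The list's median over all pools was -0.07. On leaving out scramble replicate 1, the calls were 11, 4, 14 and 12 in pools 1 to 4 (28.8%, 4.39%, 48.8% and 31% of all genes).

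**Figure D4:**
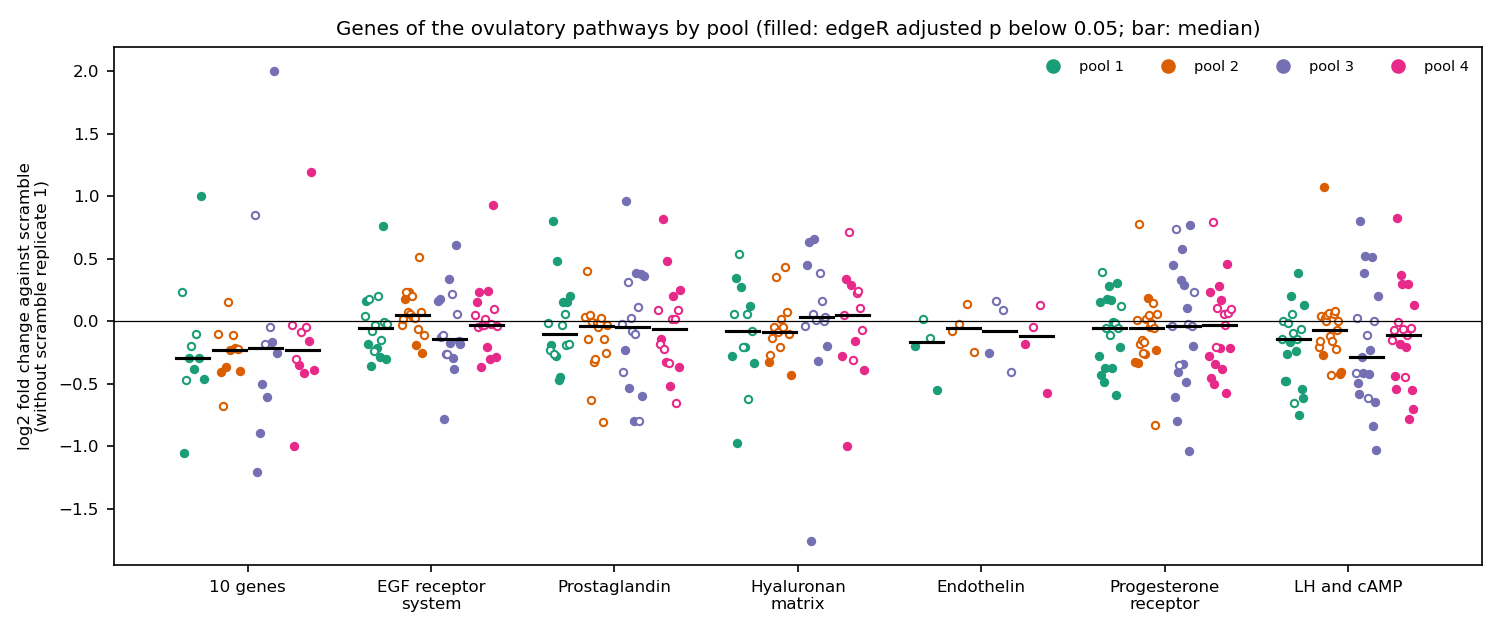
Log2 fold change against scramble (y axis), without scramble replicate 1, of the tested members of the 10 genes and of 6 pathway lists in pools 1 to 4, with filled points past an edgeR adjusted p of 0.05 and a bar at each median. The medians of the 10 genes are -0.30, -0.23, -0.22 and -0.23 in pools 1 to 4, where the medians of all genes tested lie at 0.00 to 0.01; with all 11 libraries they are -0.05, -0.18, -0.06 and -0.09, beside -0.02, -0.01, -0.02 and -0.03 for all genes.

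Likeness to other genes was measured over the 10 libraries without scramble replicate 1 as Pearson's r of log2 CPM across 11415 genes, and many of the values moved when that library was put back. The genes nearest to Ptx3 were Vash1 (r = 0.994, and 0.955 over all 11 libraries), Ggta1 (0.991 and 0.821) and Sgol2a (0.990 and 0.693). Vash1 was at means of 15.8, 7.00, 33.0 and 16.8 CPM in pools 1 to 4 and 7.21 in scramble replicates 2 and 3. Those nearest to Btc were Lox (0.980, and 0.668 over all 11), Dag1 (0.980 and 0.881) and Dclk1 (0.979 and 0.843), of which Dag1 was at 2092 CPM in scramble replicates 2 and 3 and at 1254, 1737, 1093 and 1201 CPM in pools 1 to 4. The nearest gene was Sav1 for Ereg (0.976 and 0.976), Ppp6r3 for Has2 (0.954 and 0.900) and Pik3c2a for Pgr (0.903 and 0.996). For Tnfaip6 it was Mta3, at 0.958 and 0.454. The likeness was not there over all 11 libraries for Parm1 and Sec61a1 (0.990 and -0.022) and changed sign for Ptgs2 and Arf2 (0.882 and -0.467). These points share 5 groups. A high r describes a like rise and fall over the libraries, within and between groups, and not a like size of change. The genes named are those with the highest r among the 11415. Edn2 and Areg were too low for this measure.

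In the authors' deposited table, which sets all pools beside scramble, the adjusted p was below 0.05 for Edn2 (log2 fold change -0.71, adjusted p = 0.0148) and Btc (-0.59, 0.0262) among the 10 genes, and for 9.72% of the 10136 genes with an adjusted p in it. For Tnfaip6 (-0.27, 0.0515) and Ptx3 (0.58, 0.0928) the authors' deposited table lists adjusted p-values above 0.05. In the authors' deposited table Ptgs2 has no p-value and Areg no adjusted p.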

How the data were processed

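RNA-seq libraries were made with a stranded mRNA kit, per the labels' protocols. The authors deposited raw read counts per gene symbol for each library, with mm10 as the build in the submitters' processing notes. Those notes list, with no role or order, featureCounts 1.5.0-p2 and TopHat2, cutadapt 1.9.1, bcl2fastq 2.15.0 and FastQC 0.11.5, and also DESeq2. Neither the annotation nor the strandedness used in counting is stated in the labels. The authors also deposited a table of all pools against scramble with, per the file headers, a mean normalized signal, a log2 fold change with its error, a test score, a p-value and an adjusted p-value per gene.

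Of the count files' rows, 92 ERCC spike-in rows (0.268% to 0.788% of counts) were left out, which leaves 24490 genes. Libraries held 23851293 to 32643158 counts. CPM are counts per 1000000 of that total. Tests used edgeR 4.0.16 (R 4.3.3, limma 3.58.1) with TMM scaling and its low-count filter, which kept 14144 genes, a quasi-likelihood F test, and Benjamini-Hochberg adjustment over all genes tested with a threshold of 0.05. All pools against scramble was fitted with 2 groups and the other comparisons with 5. The SE of a log2 fold change is its size divided by the square root of F. The script was tested on simulated data. Alternatives were DESeq2 1.42.0, RLE scaling, no scaling factors, no filter, a replicate block, the mean of the pools from the 5-group fit, and fits without each library or without both pool 2 libraries.

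Nothing in the labels says that replicates came from separate cultures or animals, so p-values measure the spread between these libraries, which may be technical, and the 8 pool libraries come as 2 of each pool. The 10 genes and the pathway lists were chosen with earlier results of these data known. By rule, the text names the 10 genes, up to 3 called genes per list by size of change over all pools and otherwise its 2 most abundant tested genes, and the genes with the highest Pearson r of log2 CPM (prior count 3, average log2 CPM of at least 1, without predicted genes, pseudogenes and mitochondrial genes). Promoter windows are from RefSeq GRCm38.p6, in which 8 of the 10 genes matched. Ereg and Has2 have no window shown.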

Additional observations from a re-analysis of the deposited data

Results flagged for a closer look

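For Ptx3 the 4 pools differed among themselves in a test of that difference with 3 degrees of freedom (edgeR adjusted p = 0.00448 with all 11 libraries), with pool 3 highest and pool 2 lowest. With all libraries 2.46% of genes passed, and the Ptx3 call was lost without pool 2 replicate 1 or pool 2 replicate 2. Without scramble replicate 1, the same test passed for Ptx3 (edgeR adjusted p = 1.33e-12), Btc (1.02e-06), Parm1 (6.88e-06), Ptgs2 (0.0215) and Has2 (0.0391), beside 42.8% of all genes tested. Btc, Parm1 and Has2 were highest in pool 2 in that fit, and Ptgs2 was highest in pools 3 and 4.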

How the results depend on the processing

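Counts of called genes with all libraries rested on which libraries were in the fit and on the tool, and the cause was not tested. With the mean of the pools taken from the 5-group fit, 901 of 14144 genes were called over all pools, and 3 of the 10 (Edn2, Btc and Ptx3). Without both pool 2 libraries those counts were 1390 of 14043 and 3 of the 10. RLE scaling and no low-count filter each gave 2 genes over all pools, and no filter gave 0 of the 10 in pool 1 and 158 genes in pool 3 against the other pools. DESeq2 called 1131 genes over all pools, 754 for pool 1, 28 for pool 2, 848 for pool 4, 1031 among pools, and 9, 1224, 816 and 7 for each pool against the others. DESeq2 called 2 of the 10 over all pools (Edn2 and Btc), and 2 in pool 1, in pool 4 and among pools (Ptx3 and Btc). With no scaling factors, a setting chosen after seeing the data, pool 1 had 0 of the 10, pool 2 had 2 genes, and pool 2 against the other pools had 1 of the 10, while Ptgs2 and Parm1 in pool 1 turned to 0.044 and 0.028 log2. In pool 3 that setting changed the split from 613 higher and 967 lower genes to 924 and 775, and in pool 2 against the other pools from 559 and 184 to 461 and 255. In pool 3 against the others it went from 85 and 174 to 112 and 147, in pool 1 from 65 and 208 to 73 and 132, and in pool 4 from 82 and 281 to 92 and 184.

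No pairing by replicate number was seen: over 20 same-numbered pairs across groups the deviations from group means correlated at -0.05 to 0.0785, 0 of them over 0.1. With 2 libraries a pool, the deviations of replicates 1 and 2 mirror each other. A value between pools is thus the same for both replicate numbers, and the 20 values are not independent. A replicate block gave 1649 genes over all pools, 96 for pool 1, 151 for pool 4, 146 among pools, 0 for pool 1 against the others and 51 for pool 3 against the others. With the replicate block 1 of the 10 passed over all pools (Edn2), 0 in pool 1, 0 in pool 4 and 1 in pool 2 against the others. Under the replicate block log2 fold changes turned positive for Ereg (0.082 over all pools, 0.16, 0.093 and 0.10 in pools 1, 2 and 4), Parm1 (0.19 over all pools, 0.21 and 0.18 in pools 1 and 4) and Ptgs2 (0.18 in pool 1).

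Leaving out each of the 11 libraries in turn gave 1 to 2336 genes over all pools, 9 to 4044 for pool 1, 1 to 618 for pool 2, 210 to 6864 for pool 3, 17 to 4364 for pool 4 and 6 to 6017 among pools. Against the other pools it gave 0 to 243, 111 to 6149, 0 to 5569 and 0 to 209 genes for pools 1 to 4. The highest counts came without scramble replicate 1, except over all pools, where the highest came without scramble replicate 3. Of the 10 genes, 0 to 1 passed over all pools, 0 to 6, 0 to 5, 1 to 7 and 0 to 6 for pools 1 to 4, 0 to 5 among pools, and 1 to 4 and 0 to 4 for pools 2 and 3 against the others. Log2 fold changes with both signs ran over all pools from -0.21 to 0.24 (Ptgs2), -0.38 to 0.065 (Ereg), -0.41 to 0.29 (Areg), -0.071 to 0.32 (Has2), -0.40 to 0.20 (Parm1) and -0.080 to 0.59 (Pgr). In pool 1 the ranges were -0.29 to 0.15 (Ptgs2), -0.30 to 0.14 (Ereg), -0.80 to 0.23 (Areg), -0.20 to 0.18 (Has2), -0.38 to 0.22 (Parm1) and -0.11 to 0.56 (Pgr). In pool 2 they were -0.22 to 0.23 (Ptgs2), -0.37 to 0.076 (Ereg), -0.23 to 0.37 (Parm1) and -0.11 to 0.56 (Pgr), and in pool 3 -0.17 to 0.29 (Ptgs2), -0.18 to 0.22 (Has2) and -0.046 to 0.63 (Pgr). In pool 4 they were -0.16 to 0.29 (Ptgs2), -0.35 to 0.089 (Ereg), -0.083 to 0.30 (Has2), -0.41 to 0.19 (Parm1) and -0.049 to 0.62 (Pgr). Areg and Edn2, at under 100 reads a library, limit what this depth shows.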
